A study of Mus musculus with 20 samples.

Results

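Lin28a, Lin28b, Hmga1, Hmga2, Igf2bp1, Igf2bp2, Igf2bp3 and Trim71 are genes of the early embryo, read here as a measure of developmental stage in the mouse limb. The 8 genes were matched by symbol to the probe sets of a whole-transcript array. Of these, 6 had at least 1 probe set named for them alone, 7 probe sets in all, among 19936 genes measured. Hmga1 and Igf2bp2 were not analysed here. The 6 measured genes are described in 20 single limbs at embryonic day 13.5, with RNA from 1 limb on each array. The limbs fell into 4 groups of 5: Lmx1b -/- hindlimbs, wild-type hindlimbs, Lmx1b -/- forelimbs and wild-type forelimbs. The series title asks which limb genes LMX1B, a LIM-homeodomain factor of dorsal limb mesenchyme, controls. The strain is 129Sv, the mutants are given as Lmx1b -/- with no tissue-specific driver, and wild-type limbs were the only controls. Replicates are named as biological, yet nothing ties limbs to embryos, so the p-values reflect spread among limbs that may share an embryo.

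LIN28A and LIN28B are RNA-binding proteins that block the maturation of let-7 microRNAs, and let-7 in turn represses Lin28a, Lin28b, Hmga2, Igf2bp1, Igf2bp3 and Trim71. This mutual repression lets the whole group run high in early, proliferating tissue and fall as let-7 accumulates with differentiation. HMGA2 is a chromatin protein that bends AT-rich DNA and promotes growth of mesenchyme. IGF2BP1 and IGF2BP3 bind messenger RNAs, Igf2 among them, and set their stability and translation. TRIM71 is a ubiquitin ligase and RNA-binding repressor, the mouse counterpart of the worm timing gene lin-41.

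The let-7 sequences are shown because their shared seed is what joins these genes in 1 circuit. Of the 12 let-7 family genes of the mouse, all but Mirlet7a-2 had a mature 5p sequence listed in RefSeq (GRCm38.p6). These held 9 distinct sequences, all with 1 seed, bases 2 to 8, set here in capitals. let-7a is given at Mirlet7a-1 (chr13:48538239-48538260, minus strand), let-7g at chr9:106178846-106178867 (plus strand), let-7i at chr10:122985698-122985719 (minus strand) and miR-98 at chrX:151913229-151913250 (plus strand).
let-7a-5p: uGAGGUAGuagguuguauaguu
let-7g-5p: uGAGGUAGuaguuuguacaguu
let-7i-5p: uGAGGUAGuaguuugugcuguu
miR-98-5p: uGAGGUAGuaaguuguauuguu
The 4 sequences share the seed and differ in the bases that follow it.

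LIN28 recognises the loop of the precursor, where its zinc knuckles bind GGAG. Those 4 letters stood between the mature arms in 8 of the 11 family hairpins that had both arms listed. The let-7g hairpin (chr9:106178840-106178927, plus strand) held it and the miR-98 hairpin (chrX:151913214-151913321, plus strand) did not, with GGAG in capitals.
let-7g hairpin: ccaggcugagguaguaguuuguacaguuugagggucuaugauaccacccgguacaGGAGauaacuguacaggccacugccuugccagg
miR-98 hairpin: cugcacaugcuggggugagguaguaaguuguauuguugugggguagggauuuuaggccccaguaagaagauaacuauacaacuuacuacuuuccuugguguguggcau
These are reference sequences, and the arrays did not measure binding or mature microRNA.

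The labels were checked first. Lmx1b read 5.88, 5.81, 6.09, 5.84 and 5.96 in Lmx1b -/- hindlimbs, against 6.44, 6.48, 6.31, 6.52 and 6.49 in wild-type hindlimbs, as log2 intensity. In forelimbs it read 5.60, 5.73, 5.72, 5.82 and 5.75 in Lmx1b -/- limbs, against 6.34, 6.48, 6.14, 6.30 and 6.26 in wild type. The genotypes did not overlap within either limb type, and the position of the probes relative to the deletion was not analysed here. The hindlimb factors Pitx1 and Tbx4 were 8.02-fold and 3.01-fold higher in hindlimbs, and the forelimb factor Tbx5 was 15.2-fold lower. Of 5 arrays each, 3 were male in Lmx1b -/- hindlimbs, 3 in wild-type hindlimbs, 2 in Lmx1b -/- forelimbs and 5 in wild-type forelimbs. Array medians of the deposited linear intensity ran from 28.6 to 31.8, or 4.84 to 4.99 on the log2 scale.

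Lin28a, Lin28b and Trim71 read between 4.28 and 5.45 on every array, near the array median. Hmga2, Igf2bp1 and Igf2bp3 read between 7.48 and 8.86. Probe sets answer differently to the same amount of RNA, and the table holds no detection call, so these levels do not order the genes by transcript number. Of 7 germ and pluripotent cell markers, cells in which Lin28a and Trim71 are also made, none passed the test in either of the genotype or limb-type comparisons over all 20 arrays.

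**Figure D1:**
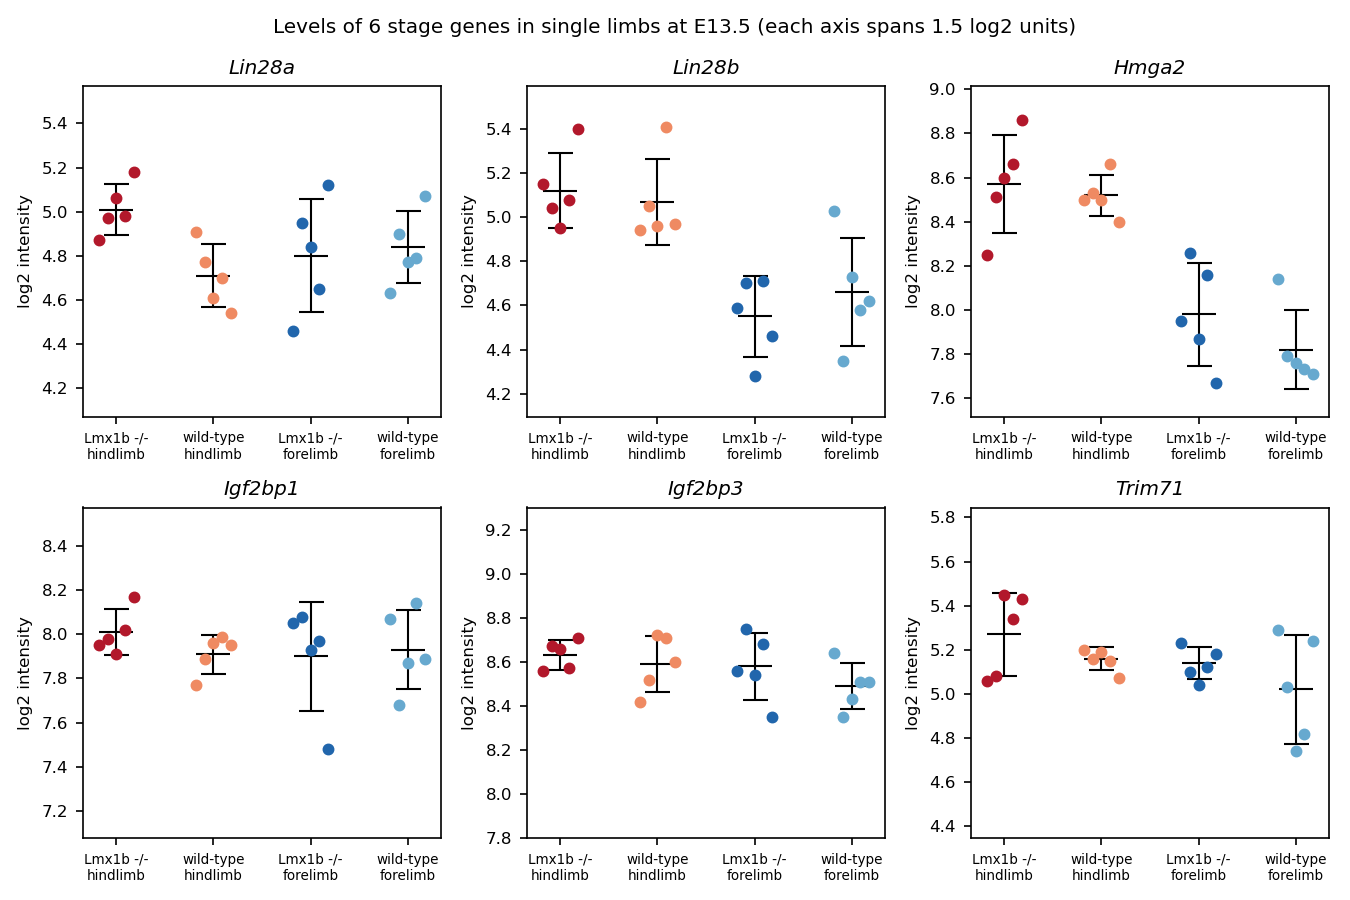
Log2 intensity (vertical axes, each spanning 1.5 units) of the 6 measured stage genes in Lmx1b -/- hindlimbs, wild-type hindlimbs, Lmx1b -/- forelimbs and wild-type forelimbs. Each point is 1 limb and the black bar is the mean with its SD (n = 5). Hmga2 and Lin28b have higher means in both hindlimb groups. Hindlimbs and forelimbs still overlap for Hmga2 in Lmx1b -/- limbs and for Lin28b in wild type, and they overlap in both genotypes for the other 4 genes.

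Hmga2 and Lin28b were higher in hindlimbs than in forelimbs, 1.56-fold and 1.4-fold over both genotypes. The other 4 genes did not pass the test. The test was limma on log2 values with p adjusted over all genes, and a gene was called at an adjusted p under 0.05. Against these 2 of 6 called, both higher, 5.96% of all genes were called between the limb types, 1.97% higher and 3.99% lower in hindlimbs.

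Hmga2 read 8.25, 8.51, 8.60, 8.66 and 8.86 in Lmx1b -/- hindlimbs, against 7.95, 8.26, 7.87, 8.16 and 7.67 in Lmx1b -/- forelimbs. In wild type it read 8.50, 8.53, 8.50, 8.66 and 8.40 in hindlimbs, against 8.14, 7.79, 7.76, 7.73 and 7.71 in forelimbs. Of the 10 hindlimbs, 9 lay above all 10 forelimbs. The exception was 1 Lmx1b -/- hindlimb at 8.25, just under the highest Lmx1b -/- forelimb at 8.26. In wild type all 5 hindlimbs lay above all 5 forelimbs, as did 1.78% of all genes. The means were 8.57 ± 0.223 in Lmx1b -/- hindlimbs, 8.52 ± 0.0933 in wild-type hindlimbs, 7.98 ± 0.233 in Lmx1b -/- forelimbs and 7.82 ± 0.180 in wild-type forelimbs (SD, n = 5 each). The difference over both genotypes was 0.64 on the log2 scale (SE 0.079, 95% interval 0.48 to 0.81; limma, adjusted p = 2.8e-05). By p it ranked 38 among the 19936 genes.

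The Hmga2 difference passed in each genotype. It was 0.59 in Lmx1b -/- limbs (SE 0.112; limma, adjusted p = 0.0109) and 0.69 in wild-type limbs (SE 0.112; limma, adjusted p = 0.00102). Called in those comparisons were 0.617% of genes in Lmx1b -/- limbs and 3.26% in wild-type limbs. The difference between the 2 values, -0.10, did not pass the test (95% interval -0.43 to 0.23; limma, adjusted p = 1), and 0.0201% of genes did.

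Lin28b read 5.15, 5.04, 4.95, 5.08 and 5.40 in Lmx1b -/- hindlimbs, against 4.59, 4.70, 4.28, 4.71 and 4.46 in Lmx1b -/- forelimbs. In wild type it read 4.94, 5.05, 4.96, 5.41 and 4.97 in hindlimbs, against 5.03, 4.35, 4.73, 4.58 and 4.62 in forelimbs. All 5 Lmx1b -/- hindlimbs lay above all 5 Lmx1b -/- forelimbs, as did 0.788% of all genes. In wild type the groups overlapped, since 1 forelimb at 5.03 lay above 3 of the hindlimbs. The difference over both genotypes was 0.49 (SE 0.082, 95% interval 0.32 to 0.66; limma, adjusted p = 0.000861), and its rank by p was 144. On the log2(value + 16) scale, which compresses dim genes, it was 0.31 (limma, adjusted p = 0.00091).

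By genotype, the Lin28b difference was 0.57 in Lmx1b -/- limbs (SE 0.116; limma, adjusted p = 0.0204) and 0.40 in wild-type limbs (SE 0.116; limma, adjusted p = 0.0587). The first passed and the second did not, yet the difference between them, 0.17, did not pass either (95% interval -0.17 to 0.51; limma, adjusted p = 1). Lin28b also passed in wild type without wild-type forelimb replicate 1, the array at 5.03 (adjusted p = 0.0134), or without Lmx1b -/- forelimb replicate 3 (adjusted p = 0.0473). Its call in Lmx1b -/- limbs was lost without any of 3 arrays: Lmx1b -/- forelimb replicate 3 (adjusted p = 0.0781), forelimb replicate 5 (adjusted p = 0.0511) or hindlimb replicate 10 (adjusted p = 0.0752).

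Trim71 averaged 5.27 ± 0.188 in Lmx1b -/- hindlimbs and 5.14 ± 0.0737 in Lmx1b -/- forelimbs, and 5.16 ± 0.0527 in wild-type hindlimbs and 5.02 ± 0.247 in wild-type forelimbs (SD, n = 5 each). Its difference over both genotypes was 0.13, with a 95% interval of -0.01 to 0.28 (limma, adjusted p = 0.273). Igf2bp3 averaged 8.63 ± 0.0677 in Lmx1b -/- hindlimbs and 8.58 ± 0.151 in Lmx1b -/- forelimbs, and 8.59 ± 0.127 in wild-type hindlimbs and 8.49 ± 0.105 in wild-type forelimbs (SD, n = 5 each). Its difference was 0.08 (-0.03 to 0.19; limma, adjusted p = 0.399). For both genes the groups overlapped in each genotype.

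Igf2bp1 averaged 8.01 ± 0.103 in Lmx1b -/- hindlimbs and 7.90 ± 0.246 in Lmx1b -/- forelimbs, and 7.91 ± 0.0878 in wild-type hindlimbs and 7.93 ± 0.180 in wild-type forelimbs (SD, n = 5 each). Its difference was 0.04, with a 95% interval of -0.10 to 0.19 (limma, adjusted p = 0.775). A second, dimmer Igf2bp1 probe set gave 0.09 (SE 0.09; limma, adjusted p = 0.624). Lin28a differed by 0.04 (-0.11 to 0.19; limma, adjusted p = 0.807). The upper bound for each of these 4 genes lay at or below 0.28, under the lower bounds of 0.48 for Hmga2 and 0.32 for Lin28b.

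**Figure D2:**
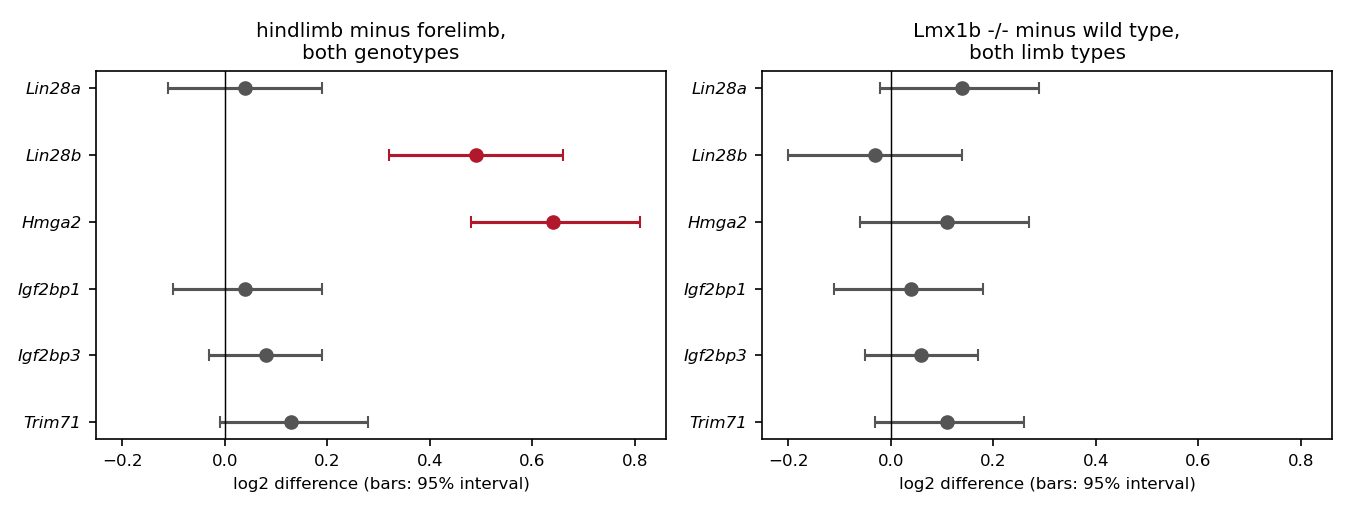
Log2 differences of the 6 stage genes (horizontal axes) between hindlimbs and forelimbs over both genotypes (left) and between Lmx1b -/- and wild-type limbs over both limb types (right). Points are limma estimates, bars are 95% intervals, and red marks an adjusted p under 0.05 over all genes. Hmga2 at 0.64 and Lin28b at 0.49 are the called values, and every interval on the right includes 0.

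The limb-type differences of the 6 genes were then set against each other within each array, a comparison chosen after the values were seen. The log2 ratio of Hmga2 to Igf2bp3 was higher in hindlimbs by 0.56 and that to Igf2bp1 by 0.60. Both had an adjusted p of 0.000157 in an exact two-sided permutation test of limb type within genotype, adjusted over the 15 gene pairs. The ratio of Hmga2 to Trim71 was higher by 0.51 (exact permutation test, adjusted p = 0.000236). Lin28b behaved likewise, with ratios higher by 0.45 to Igf2bp1, 0.41 to Igf2bp3 and 0.36 to Trim71 (exact permutation test, adjusted p = 0.000157, 0.000472 and 0.00682). The paralogs Lin28a and Lin28b also parted, with a ratio of Lin28a to Lin28b lower by 0.45 in hindlimbs (exact permutation test, adjusted p = 0.00726). The ratio of Lin28b to Hmga2 differed by -0.15 and did not pass (exact permutation test, adjusted p = 0.111). In these arrays Hmga2 and Lin28b changed with limb type by more than the genes beside them. The ratios come from the same values as the differences above, so they are not a separate test of those. A ratio within an array does not show that the others were constant.

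Skeletal muscle genes moved with limb type in the other direction. Of 20 muscle genes, 19 were lower in hindlimbs and none higher, with a median of -0.49 beside 0.01 over all genes. Among them were Tnnt2, a troponin (-0.64), Myl1, a myosin light chain (-0.52), Myog, a myogenic factor (-0.58), and Acta1, skeletal actin (-0.56). Within Lmx1b -/- limbs 3 muscle genes were lower, with a median of -0.34, and within wild type all 20 were, with a median of -0.62. The mean log2 level over the muscle list was 7.06 ± 0.151 in Lmx1b -/- hindlimbs, 7.14 ± 0.182 in wild-type hindlimbs, 7.41 ± 0.153 in Lmx1b -/- forelimbs and 7.83 ± 0.215 in wild-type forelimbs (SD, n = 5 each). In whole limbs, fewer cells of a type and less RNA per cell cannot be told apart. Other cell types gave fewer calls between limb types: of 8 neuron genes 2 were higher and 2 lower, of 8 epidermis genes 1 was higher and 1 lower, of 6 limb mesenchyme genes 1 was higher and 2 lower, and of 5 macrophage genes 2 were lower. None of 16 chondrocyte, 5 endothelium, 3 Schwann cell, 3 primitive erythroid or 3 definitive erythroid genes was called. With the muscle mean as a covariate, which itself separates the limb types, Hmga2 differed by 0.46 (limma, adjusted p = 0.498) and Lin28b by 0.27 (limma, adjusted p = 0.86). That fit called 33 genes in all. The part of muscle content in the 2 differences was not tested beyond this. In the male arrays alone the differences were 0.68 for Hmga2 (limma, adjusted p = 0.00197) and 0.50 for Lin28b (limma, adjusted p = 0.0265).

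Without Lmx1b, none of the 6 stage genes passed the test. Over both limb types 2.04% of all genes were called, 1.27% in forelimbs and 0.231% in hindlimbs. Differences over both limb types ran from -0.03 for Lin28b to 0.14 for Lin28a, with 5 of 6 positive, and at an unadjusted p under 0.05 the count was also 0. The 95% interval was -0.06 to 0.27 for Hmga2, -0.20 to 0.14 for Lin28b and -0.02 to 0.29 for Lin28a. It was -0.11 to 0.18 for Igf2bp1, -0.05 to 0.17 for Igf2bp3 and -0.03 to 0.26 for Trim71. Adjusted p ran from 0.412 to 0.917 over the 6 genes (limma).

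In forelimbs Hmga2 averaged 7.98 ± 0.233 in Lmx1b -/- and 7.82 ± 0.180 in wild type (SD, n = 5 each), a difference of 0.16 (95% interval -0.07 to 0.39; limma, adjusted p = 0.597). In hindlimbs its difference was 0.06 (-0.18 to 0.29; limma, adjusted p = 0.991). Lin28b differed by -0.11 in forelimbs (-0.35 to 0.13) and 0.06 in hindlimbs (-0.19 to 0.30). A genotype difference in forelimbs of up to 0.39 for Hmga2 thus lies within the error of 5 limbs a group.

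Lin28a had the lowest p of the stage genes between genotypes. It read 4.87, 4.97, 5.06, 4.98 and 5.18 in Lmx1b -/- hindlimbs, against 4.91, 4.77, 4.61, 4.70 and 4.54 in wild-type hindlimbs. Of the 5 Lmx1b -/- hindlimbs, 4 lay above all wild-type hindlimbs. The difference was 0.30 (SE 0.105; unadjusted p = 0.00862), and it did not pass over all genes (limma, adjusted p = 0.557). In forelimbs Lin28a read 4.46, 4.95, 4.84, 4.65 and 5.12 in Lmx1b -/- limbs, against 4.63, 4.90, 4.77, 4.79 and 5.07 in wild type, a difference of -0.03. The forelimb groups overlapped throughout, and the difference between the hindlimb and forelimb values, 0.34, did not pass (95% interval 0.03 to 0.64; limma, unadjusted p = 0.0346, adjusted p = 1).

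No gene of the let-7 processing list, which does not hold Lin28b, passed the test. All 11 let-7 processing genes were measured, and 0 passed between hindlimbs and forelimbs in limma, with 1 at an unadjusted p under 0.05 and a median of 0.01. They include Drosha (0.08; adjusted p = 0.389) and the uridylyltransferase Tut4, which tails let-7 precursors held by LIN28 (0.07; adjusted p = 0.44). Ago2, the slicing Argonaute, gave -0.15 (adjusted p = 0.172). Between genotypes 0 of the 11 passed, with 2 at an unadjusted p under 0.05. Of 12 let-7 genes, 10 had a probe set, and 0 passed in either comparison, with none between limb types and 2 between genotypes at an unadjusted p under 0.05. Array probes at these genes see primary or precursor RNA, so they do not report mature let-7.

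Other let-7 targets moved in both directions between limb types. Of 17 measured, Hic2, a transcriptional repressor (0.16), and the cell cycle regulator E2f5 (0.20) were higher in hindlimbs. The proto-oncogene Myc (-0.40) and the insulin receptor gene Insr (-0.21) were lower. The median was 0.08, and adjusted p ran from 0.00388 for Myc to 0.033 for Insr (limma). Within Lmx1b -/- limbs 0 of the 17 passed, and within wild type 2 were lower. In Lmx1b -/- limbs Myc (-0.32; adjusted p = 0.0424) and the insulin signalling adaptor Irs2 (-0.15; adjusted p = 0.0481) were lower than in wild type, and no measured target was higher (limma).

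The chromatin proteins nearest in kind to HMGA2 gave 1 call in each comparison. Hmgb3 was higher in hindlimbs by 0.24 (limma, adjusted p = 0.0192), the 1 call among 7 other high-mobility-group genes, whose median was 0.13. Its difference was 0.17 in Lmx1b -/- limbs (adjusted p = 0.522) and 0.30 in wild type (adjusted p = 0.048), both from limma. Between genotypes the 1 call was Hmgb1, which read 6.89, 7.07, 6.74, 7.26 and 7.17 in Lmx1b -/- hindlimbs, against 6.81, 6.56, 6.65, 6.79 and 6.78 in wild-type hindlimbs. In forelimbs it read 7.03, 7.12, 6.81, 7.33 and 6.97 in Lmx1b -/- limbs, against 6.16, 6.67, 6.45, 6.80 and 6.34 in wild type. Every Lmx1b -/- forelimb lay above every wild-type forelimb, as for 0.813% of genes, while the hindlimb groups overlapped. Its difference over both limb types was 0.44 (limma, adjusted p = 0.0044).

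The insulin-like growth factor pathway, whose ligand transcript Igf2 is bound by the IGF2BP proteins, gave 6 genes lower in hindlimbs of 12 measured and none higher, with a median of -0.20. Within Lmx1b -/- limbs 0 of the 12 passed, with a median of -0.10, and within wild type 8 were lower, with a median of -0.31. The difference between those counts was not tested. Igf1 was lower by 0.54 on the log2 scale (adjusted p = 0.000752), Igf2 by 0.20 (adjusted p = 0.00546), and the binding proteins Igfbp4 by 0.21 (adjusted p = 0.0045) and Igfbp3 by 0.25 (adjusted p = 0.00981), all from limma. Of 9 measured genes of fetal growth, imprinted apart from the X-linked Gpc3, 5 were lower and none higher, with a median of -0.20, Igf2 being on both lists. Within Lmx1b -/- limbs 0 of them passed, and within wild type 3 were lower. Dlk1, a non-canonical Notch ligand, was lower by 0.43 (limma, adjusted p = 0.00187), the heparan sulfate proteoglycan Gpc3 by 0.21 (limma, adjusted p = 0.011), and the zinc finger gene Plagl1 by 0.33 (limma, adjusted p = 0.0356). Between genotypes Igfbp4 was lower in Lmx1b -/- limbs by 0.24 (limma, adjusted p = 0.00226), Igfbp3 was higher by 0.29 (limma, adjusted p = 0.00704), and none of the 9 fetal growth genes passed.

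Some genes that follow limb maturation were called between limb types as well. Of 17 early limb bud genes 3 were higher in hindlimbs and 1 lower, with a median of 0.19. The higher ones were Hoxa13, a distal patterning gene (0.44; adjusted p = 0.00417), Msx1, a factor of undifferentiated mesenchyme (0.39; adjusted p = 0.00928), and Lhx9, a LIM-homeodomain gene (0.40; adjusted p = 0.0323). The Notch ligand Jag1 was lower (-0.39; adjusted p = 0.0244), all from limma. Within Lmx1b -/- limbs 0 of the 17 passed, with a median of 0.09, and within wild type 6 were higher, with a median of 0.26. Hoxa13 differed by 0.19 in Lmx1b -/- limbs and 0.69 in wild type, and Msx1 by 0.14 in Lmx1b -/- limbs and 0.64 in wild type, and neither passed the test of the difference between genotypes (limma, adjusted p = 1 for both).

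Of 9 measured hypertrophy and bone genes 5 were lower and none higher, with a median of -0.21. Phex, an osteoblast peptidase gene, was lower by 1.95 (adjusted p = 3.75e-09), the bone matrix gene Ibsp by 1.11 (adjusted p = 0.00743), the osteoblast factor Sp7 by 0.28 (adjusted p = 0.0116), and the phosphatase Alpl by 0.25 (adjusted p = 0.0321), all from limma. For Ibsp the hindlimb minus forelimb difference was -0.02 in Lmx1b -/- limbs (adjusted p = 0.995) and -2.20 in wild type (adjusted p = 0.000646), both from limma. The Lmx1b -/- difference minus the wild-type one was 2.19, which did not pass (limma, adjusted p = 0.34). Phex was lower in both, with -1.87 in Lmx1b -/- limbs and -2.03 in wild type, and was the 1 gene of the list that passed in Lmx1b -/- limbs, against 5 in wild type. Of 14 cell cycle genes the mitotic checkpoint kinase Bub1 (0.20; limma, adjusted p = 0.0181) was the 1 call.

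**Figure D3:**
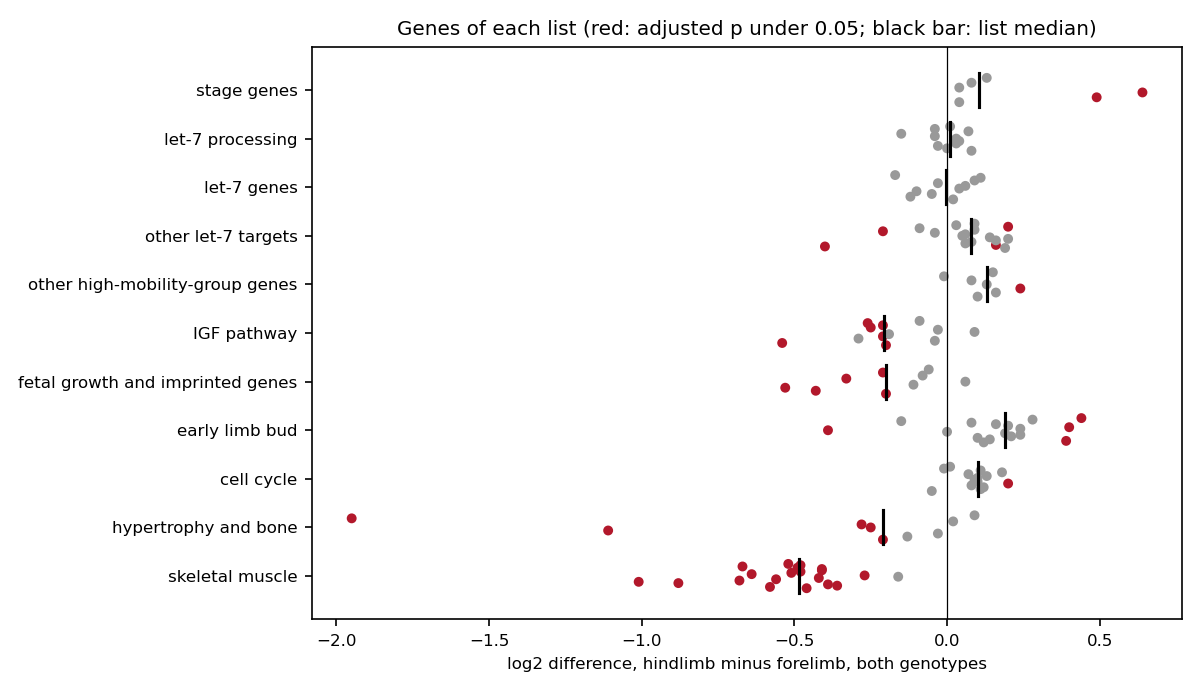
Log2 difference between hindlimbs and forelimbs over both genotypes (horizontal axis) for the measured genes of 11 lists. Each point is a gene, red marks an adjusted p under 0.05 over all genes, and the black bar is the list median. Stage genes, with Hmga2 and Lin28b in red, lie to the right of 0, and muscle genes lie to the left with a median of -0.49.

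Genes of the same maturation lists were also called between genotypes. In Lmx1b -/- limbs Ibsp was lower by 1.30 (adjusted p = 0.00424), Alpl by 0.33 (adjusted p = 0.00935) and Sp7 by 0.30 (adjusted p = 0.0149), and 6 of 20 muscle genes were lower (limma). The early bud genes Hand2 (0.31; adjusted p = 0.00644), Lhx2 (0.31; adjusted p = 0.0227) and Lhx9 (0.44; adjusted p = 0.036) were higher (limma). The cell cycle kinase Cdk1 was higher by 0.18 (limma, adjusted p = 0.0399). Within hindlimbs alone 0 genes of the bone, muscle and early bud lists passed, against 3, 6 and 3 in forelimbs. Over all genes 0.231% passed in hindlimbs and 1.27% in forelimbs. All 5 wild-type forelimbs were male, against 2 of 5 Lmx1b -/- forelimbs. The forelimb comparison called 253 genes, 139 with the Y-linked mean as a covariate and 37 in male arrays only. The hindlimb one called 46, 45 and 13. The part of sex in the list counts was not tested. Ibsp differed by -0.21 in hindlimbs (adjusted p = 0.99) and by -2.40 in forelimbs (adjusted p = 0.000351), both from limma. Alpl differed by -0.11 in hindlimbs and -0.55 in forelimbs, and Sp7 by -0.15 in hindlimbs and -0.45 in forelimbs. No gene of these lists passed the test of the difference between the limb types. Markers of other cells gave 2 lower endothelium genes of 5, 2 lower macrophage genes of 5, and 1 higher and 2 lower neuron genes of 8, and no chondrocyte, erythroid, Schwann cell, epidermis or limb mesenchyme gene was called.

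Among limbs of the same group, 4 of 15 pairs of stage genes varied together. Correlations were taken over the 20 arrays after each group's mean was removed, with a two-sided permutation test within groups and adjustment over the 15 gene pairs. Igf2bp3 and Igf2bp1 had r = 0.79 (p = 0.00022, adjusted p = 0.0033) and rho = 0.72 (p = 0.00064, adjusted p = 0.0096). Only 0.15% of all genes had an r that high with Igf2bp3, and 0.12% with Igf2bp1. Without the 2 arrays farthest from the median r was 0.65. It was 0.82 in right limbs, 0.88 in left limbs, 0.80 in males, 0.61 in females, 0.70 in hindlimbs and 0.85 in forelimbs.

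Igf2bp3 and Hmga2 had r = 0.69 (permutation p = 0.00116, adjusted p = 0.0087; rho = 0.60, p = 0.00967, adjusted p = 0.0725) and 0.63 without the 2 farthest arrays. Hmga2 and Lin28b had r = 0.65 (permutation p = 0.00438, adjusted p = 0.0219; rho = 0.51, p = 0.0312, adjusted p = 0.117) and 0.53 without them. Igf2bp3 and Lin28b had r = 0.60 (permutation p = 0.0104, adjusted p = 0.0391; rho = 0.49, p = 0.0457, adjusted p = 0.117) and 0.47 without them. An r as high as that of Igf2bp3 with Hmga2 was reached by 1.09% of all genes to Igf2bp3 and 2.43% to Hmga2. For Hmga2 with Lin28b it was 3.67% to Hmga2 and 0.793% to Lin28b. For Igf2bp3 with Lin28b it was 3.03% to Igf2bp3 and 1.57% to Lin28b. For these 3 pairs the rank correlation did not pass, and leaving out single arrays raised the adjusted p to as much as 0.0529, 0.101 and 0.101. With wild-type forelimb replicate 1 left out, 1 of the 4 pairs still passed, Igf2bp3 with Igf2bp1, and 2 did without Lmx1b -/- hindlimb replicate 10 or wild-type hindlimb replicate 9. By sex, r was 0.57 in males and 0.65 in females for Igf2bp3 with Hmga2, 0.59 in males and 0.96 in females for Hmga2 with Lin28b, and 0.75 in males and 0.51 in females for Igf2bp3 with Lin28b. By side, r was 0.73 in right and 0.99 in left limbs for Igf2bp3 with Hmga2. It was 0.53 in right and 0.86 in left limbs for Hmga2 with Lin28b. For Igf2bp3 with Lin28b it was 0.58 in right and 0.79 in left limbs. By limb type, r was lower in hindlimbs for all 3 pairs. Igf2bp3 with Hmga2 had 0.40 in hindlimbs and 0.87 in forelimbs. Hmga2 with Lin28b had 0.52 in hindlimbs and 0.73 in forelimbs, and Igf2bp3 with Lin28b 0.43 and 0.71.

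The pattern was visible in single limbs. Lmx1b -/- hindlimb replicate 10 was the highest of its group for 5 of the 6 genes, all but Trim71, and replicate 6 was the lowest for Lin28a, Hmga2, Igf2bp3 and Trim71. Wild-type forelimb replicate 1 was the highest of its group for Lin28b, Hmga2, Igf2bp3 and Trim71. Among Lmx1b -/- forelimbs, replicate 2 was the highest and replicate 5 the lowest for Hmga2, Igf2bp1 and Igf2bp3. Over all 20 arrays Lin28a had r of -0.51 to Igf2bp1, -0.35 to Igf2bp3, -0.23 to Lin28b and -0.10 to Hmga2, none passing. The value to Igf2bp1 was -0.21 without the 2 farthest arrays. By limb type, Lin28a had r = 0.64 to Hmga2 in hindlimbs and -0.46 in forelimbs, and 0.18 and -0.44 to Lin28b. To Igf2bp1 it had -0.11 in hindlimbs and -0.62 in forelimbs, and to Igf2bp3 -0.27 and -0.40. Trim71 had its highest r, 0.45, with Hmga2 (permutation p = 0.0824, adjusted p = 0.157).

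**Figure D4:**
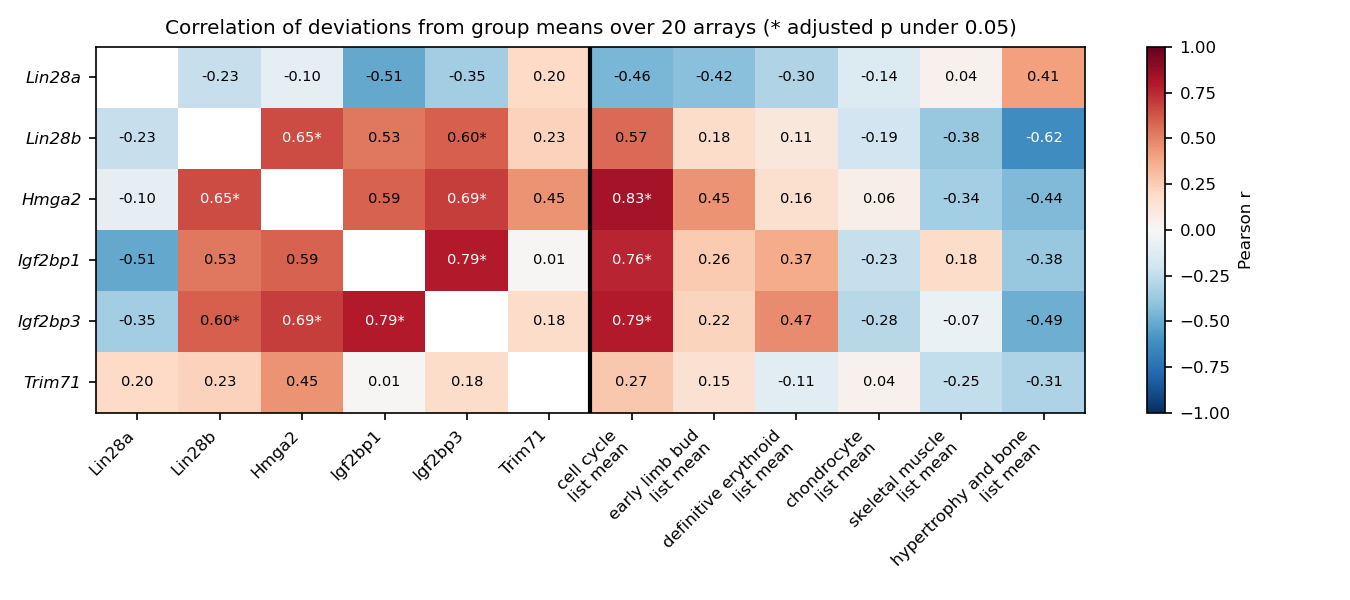
Pearson r between deviations from group means over 20 arrays, for the 6 stage genes (rows) with each other (left of the line) and with the mean of 6 gene lists (right of the line). Red is positive, blue is negative, and a star marks a permutation test with adjusted p under 0.05. Hmga2, Igf2bp1 and Igf2bp3 carry stars with the cell cycle list, and Lin28a is negative to 4 of the other 5 stage genes.

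Hmga2, Igf2bp1 and Igf2bp3, the 3 brighter stage genes, varied with the cell cycle list. Of 36 relations between the 6 genes and 6 list means, 3 passed after adjustment over all 36. The share of all genes with an r as high to the cell cycle mean was not counted. Hmga2 had r = 0.83 with the cell cycle mean (permutation p = 0.0002, adjusted p = 0.0063; rho = 0.80, p = 0.00026, adjusted p = 0.00432) and 0.80 without the 2 farthest arrays. Igf2bp3 had r = 0.79 (permutation p = 0.00035, adjusted p = 0.0063; rho = 0.77, p = 0.00036, adjusted p = 0.00432) and 0.71 without them. Igf2bp1 had r = 0.76 (permutation p = 0.00163, adjusted p = 0.0196; rho = 0.78, p = 0.0003, adjusted p = 0.00432) and 0.68 without them, and its adjusted p reached 0.139 with single arrays left out and 0.0512 with side removed. Lin28b had 0.57 (permutation p = 0.0149, adjusted p = 0.107) and did not pass. It did with quantile normalization (r = 0.72; permutation test, adjusted p = 0.0113) and under no other scaling. Its r with the hypertrophy and bone mean was -0.62 (permutation p = 0.0143, adjusted p = 0.107). That relation passed with log2(value + 16) (r = -0.67; permutation test, adjusted p = 0.0427) and not with quantile normalization (adjusted p = 0.0721). These values share the array, so scaling that moves all bright probe sets of an array together would enter all of them, and that part was not tested beyond the scalings in the closing section.

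Within right limbs, left limbs, male arrays and female arrays, the relation of these 3 genes to the cell cycle mean kept its sign. For Hmga2, r was 0.91 in the 12 right and 0.87 in the 8 left limbs, and 0.84 in the 13 male and 0.64 in the 7 female arrays. For Igf2bp3 it was 0.79 in right and 0.89 in left limbs, and 0.79 in male and 0.59 in female arrays. For Igf2bp1 it was 0.69 in right and 0.95 in left limbs, 0.83 in male arrays and 0.26 in female arrays. By limb type, r was 0.82 in hindlimbs and 0.85 in forelimbs for Hmga2. It was 0.61 in hindlimbs and 0.88 in forelimbs for Igf2bp3, and 0.60 and 0.81 for Igf2bp1. All 14 cell cycle genes taken singly correlated positively with each of the 3 genes. The median r with Hmga2 was 0.61, from 0.07 for Mki67 to 0.84 for the ribonucleotide reductase subunit Rrm2, beside 0.02 over all genes. It was 0.57 with Igf2bp3 and 0.54 with Igf2bp1, each beside 0.02, and 0.49 with Lin28b beside 0.03.

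The limb-type difference was also fitted beside this list. The cell cycle mean was 8.50 ± 0.0783 in Lmx1b -/- hindlimbs, 8.45 ± 0.0513 in wild-type hindlimbs, 8.44 ± 0.129 in Lmx1b -/- forelimbs and 8.33 ± 0.0810 in wild-type forelimbs (SD, n = 5 each). With that mean as a covariate, an alternative chosen after seeing the data, Hmga2 differed between limb types by 0.49 (limma, adjusted p = 4.36e-05) and Lin28b by 0.38 (limma, adjusted p = 0.0138).

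**Figure D5:**
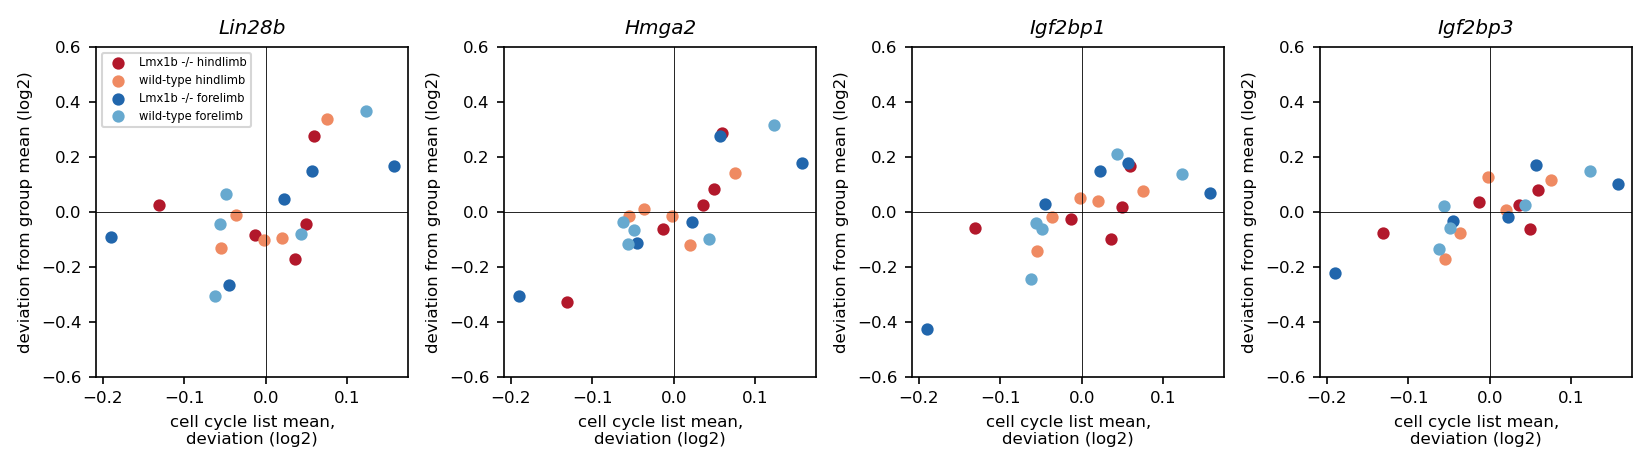
Deviation of Lin28b, Hmga2, Igf2bp1 and Igf2bp3 from the group mean (vertical axes, log2) against that of the mean of 14 cell cycle genes (horizontal axes, log2). Each point is 1 limb, coloured by group. Limbs with a higher cell cycle mean have higher Hmga2 (r = 0.83), Igf2bp3 (r = 0.79) and Igf2bp1 (r = 0.76), and Lin28b spreads more widely (r = 0.57).

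The genes whose levels ran closest to each stage gene over the 20 arrays, with group differences left in, are given as a description. Dusp9, a phosphatase for mitogen-activated kinases, had r = 0.937 with Hmga2 and kept 0.797 once group means were removed. It read 7.25, 7.25, 7.42, 7.35 and 7.41 in Lmx1b -/- hindlimbs and 7.25, 7.15, 7.20, 7.41 and 7.24 in wild-type hindlimbs. In forelimbs it read 6.86, 7.17, 6.97, 7.23 and 6.77 in Lmx1b -/- limbs and 7.07, 6.66, 6.79, 6.85 and 6.73 in wild type. Like Hmga2, it was highest among wild-type forelimbs in replicate 1 and lowest among Lmx1b -/- forelimbs in replicate 5. Next to Hmga2 came Ugt8a (r = 0.915), a galactosyltransferase gene of glycolipid synthesis, and Aif1l (r = 0.906), an actin-binding protein gene.

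For Lin28b the closest gene was Isl1 (r = 0.860), a LIM-homeodomain factor of the early hindlimb field, which was higher in hindlimbs by 1.27. The second was Hmga2 itself (r = 0.855) and the third Mycs (r = 0.851), a Myc family gene. Without group means these fell to 0.571 for Isl1, 0.646 for Hmga2 and 0.669 for Mycs. Closest to Igf2bp3 were the condensin subunit Ncapd2 (r = 0.875), the mitotic helicase Ercc6l (r = 0.855) and the DNA repair nuclease Exo1 (r = 0.853). Closest to Igf2bp1 were the decapping enzyme Dcp2 (r = 0.871), the splicing factor Eftud2 (r = 0.867) and the homeobox gene Meox1 (r = 0.826). Lin28a ran closest to Aunip (r = 0.763), Tnfrsf23 (r = 0.761) and Togaram2 (r = 0.748), and Trim71 to Hdac2 (r = 0.773), Strap (r = 0.766) and Rbm8a2 (r = 0.765).

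The promoters of Hmga2 and Lin28b are shown because these were the stage genes that differed between limb types. Each sequence is the 250 bases before the RefSeq start (GRCm38.p6), with GGGCGG or CCGCCC, the GC box on either strand, and CACGTG, the E-box bound by MYC, in capitals.
Hmga2 (chr10:120476470-120476719, minus strand): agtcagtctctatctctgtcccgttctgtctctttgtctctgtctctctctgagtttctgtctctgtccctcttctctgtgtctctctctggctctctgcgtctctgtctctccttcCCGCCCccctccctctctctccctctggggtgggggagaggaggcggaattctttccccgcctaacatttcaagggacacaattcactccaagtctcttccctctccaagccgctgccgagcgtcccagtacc
Lin28b (chr10:45470202-45470451, minus strand): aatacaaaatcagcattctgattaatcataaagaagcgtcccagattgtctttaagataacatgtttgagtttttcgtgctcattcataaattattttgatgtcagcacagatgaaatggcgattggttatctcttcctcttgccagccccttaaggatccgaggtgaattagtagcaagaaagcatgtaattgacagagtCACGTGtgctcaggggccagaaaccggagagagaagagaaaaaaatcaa
The table gives 1 start for Lin28b, which lies inside the span annotated to the gene, downstream of its outermost 5′ end, and other starts were not searched. The Hmga2 window held a GC box, found in 32.7% of 32851 mouse promoters of the same length, and no E-box. The window of Trim71, which was not called between limb types, also held a GC box. The Lin28b window held an E-box, found in 6.0% of them, and CCAAT on the strand opposite to that shown, found on either strand in 33.8%. The window of Igf2bp3, which was not called between limb types, also held an E-box and CCAAT. Both windows, and that of Lin28a, held CTCTCTC on either strand, found in 8.3%, and those of Igf2bp3 and Trim71 did not. No window was given for Igf2bp1. The motifs do not overlap in their letters, and a match is a description of these windows.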

How the data were processed

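Total RNA of single limbs, 300 ng per labelling, was hybridised to Affymetrix GeneChip ST arrays, per the labels' protocols. The deposited values are linear intensities from 1.65 to 13033. The submitters' processing notes name RMA for them, and no annotation or build is given in the sources used here. The log2 was taken without a pseudocount. Of 35512 probe sets, 21789 had 1 gene symbol, updated through RefSeq (GRCm38.p6, names only). The probe set with the highest mean stood for a gene, which left 19936 genes.

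Groups followed the labels. All comparisons came from 1 limma 3.58.1 fit (R 4.3.3; lmFit, contrasts.fit, eBayes) with 4 group means and Benjamini-Hochberg adjustment over all genes. Correlations used deviations from group means and 100000 resamples within groups (Python 3.11.15, scipy 1.17.1). Both were tested on simulated data. The number of arrays limits the precision. Members, lists and tests were chosen with earlier results of these data known. By rule, the text names all members, up to 4 genes of each list with the smallest p, the 3 genes closest to each member and the label checks. Alternatives covered scaling, pseudocount, dim genes, probe sets, variance model, array weights, sex, side, muscle, replicate blocks and arrays left out. The mean log2 level of the Y-linked genes Kdm5d, Uty and Eif2s3y gave each limb's sex. Hmga1 and Igf2bp2 were not analysed here.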

Additional observations from a re-analysis of the deposited data

Results flagged for a closer look

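In 24 combinations of a stage gene and a group of 5 limbs, 3 held an array far from the rest, where chance flags about 1 in 20. Hmga2 read 8.14 in wild-type forelimb replicate 1, with the other 4 at 7.71 to 7.79. Lin28b read 5.41 in wild-type hindlimb replicate 9, with the others at 4.94 to 5.05. Igf2bp1 read 7.48 in Lmx1b -/- forelimb replicate 5, with the others at 7.93 to 8.08.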

How the results depend on the processing

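Between genotypes, and for the difference between the genotype effects, 0 stage genes were called in limma in any alternative run. Over both genotypes the limb-type count of 2 was 1 with dim genes left out, which keeps 3 of the 6 genes, and 0 with the muscle mean as a covariate. It stayed at 2 without any single array, where Hmga2 ran from 0.61 to 0.68 and Lin28b from 0.45 to 0.54. In wild type the count of 1 was 2 with an intensity trend (Lin28b adjusted p = 0.0497), 2 with array weights (0.0243) and 0 with the muscle mean, and from 1 to 2 without single arrays. It was 2 without wild-type forelimb replicate 1 or Lmx1b -/- forelimb replicate 3. In Lmx1b -/- limbs the count of 2 was 1 with dim genes left out, 1 with only the groups compared (Hmga2 adjusted p = 0.0979), 0 in male arrays only, a fit with 13 calls in all, and 0 with the muscle mean, and from 1 to 2 without single arrays.

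Of 1449 values for single genes under an alternative, 1370 kept direction and call, 12 lost the call, 4 gained it, 63 changed sign without a call, and 0 reversed a call. Most of these values had no call to lose. All 12 losses were for Hmga2 or Lin28b between limb types. Lin28b in Lmx1b -/- limbs lost its call in 6 of 35 alternatives. The number of correlated pairs, 4 with all arrays, was 1 to 6 without single arrays, 1 without wild-type forelimb replicate 1 and 2 without Lmx1b -/- hindlimb replicate 10 or wild-type hindlimb replicate 9. The number of list relations, 3 with all arrays, was 2 to 7 without single arrays, 7 without Lmx1b -/- hindlimb replicate 6. By scaling, the pairs were 6 with arrays centred on their median, 5 with quantile normalization and 4 with log2(value + 16). The list relations were 3, 4 and 4 in that order. Hmga2, Igf2bp1 and Igf2bp3 passed with the cell cycle mean under each scaling. The cause of these changes was not tested, beyond the smaller number of genes or arrays.

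Limbs with the same side and number had low r, from -0.31 to 0.26, across genotypes and within them. At most 2 of 5 limbs correlated best with their own number. Between hindlimb and forelimb r ran from -0.23 to 0.23 in Lmx1b -/- and from -0.07 to 0.15 in wild type. Low r alone cannot exclude a shared embryo. Such limbs had the same sex in 2 of 5 Lmx1b -/- pairs and 3 of 5 wild-type pairs, so the numbers do not pair limbs by embryo. With the replicate block of 10 the count in Lmx1b -/- limbs was 1 (Lin28b adjusted p = 0.0603), and with a block removed the list relations were 5. With the block of 5, Hmga2 and Lin28b stayed called between limb types (adjusted p = 0.000185 and 0.00173).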
